A study of Homo sapiens with 6 samples.

Results

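The genes described here are 42 that charge transfer RNAs with amino acids or belong to the response of cells to amino acid shortage, taken by symbol from the 56638 gene rows of each count table. All 42 symbols were present. They fall by role into 20 cytosolic aminoacyl-tRNA synthetases, 4 mitochondrial synthetases, 2 kinases of the initiation factor eIF2, 6 transcription factors or cofactors, 4 stress effectors or feedback genes and 6 enzymes of amino acid synthesis. Total RNA was sequenced from cells that the labels call SW480, a line established from a human colorectal tumour, grown at passages 16 to 19 in RPMI-1640 medium with fetal bovine serum. The 3 libraries of the TGFB1 group came from cells given TGF-β1, a secreted cytokine, repeatedly at 10 ng/ml, and the 3 libraries of the control group from untreated cells. The labels do not say how long the exposure lasted.

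Aminoacyl-tRNA synthetases attach each amino acid to its tRNA, and cytosolic and mitochondrial protein synthesis mostly use enzymes of separate genes. When an amino acid runs short, uncharged tRNA activates the kinase GCN2, encoded by EIF2AK4, while unfolded protein in the endoplasmic reticulum activates PERK, encoded by EIF2AK3. Both phosphorylate eIF2, which lowers general protein synthesis but favours translation of the ATF4 mRNA, and the ATF4 protein then induces genes for synthetases, amino acid synthesis and transport. The ATF4 step is thus largely translational, and neither protein nor eIF2 phosphorylation was measured here.

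Counts in genes ran from 13012898 to 16005222 per library, and log2 levels of libraries within a group correlated at 0.993 or above across genes. The labels do not tell whether the replicates are separate cultures, so the p-values cover the spread between these libraries, which may be technical. Several defining markers of intestinal epithelium were near absence: CDX2 had 0 counts in all 6 libraries, VIL1 had 0 to 2 per library and EPCAM stood at 6.94 CPM in control cells, while KRT8 stood at 1711 CPM. With TGF-β1, EPCAM fell 1.73-fold and KRT18 1.47-fold (edgeR adjusted p = 2.46e-04 and 1.73e-10), while KRT8 did not pass (edgeR adjusted p = 0.628). The summed level of 10 fibroblast markers was 91.7 to 95.4 CPM in control and 120.8 to 136.7 CPM in TGFB1 libraries. All 5 of them that could be tested rose: COL1A1 1.3-fold, DCN 2.24-fold, PDGFRB 1.85-fold, THY1 2.17-fold and FAP from 0.0223 to 1.14 CPM (edgeR adjusted p up to 0.0208). COL1A1 made up most of the summed fibroblast level, at 81.3 CPM in control and 105.2 CPM in TGFB1 cells. COL1A2, COL3A1 and PDGFRA had 0 to 2 counts per library. LUM had 0 to 5 and ACTA2 6 to 11, too few to be tested. The summed level of 6 leukocyte markers was 1.63 to 3.06 CPM over all libraries (PTPRC at 0). That of 4 endothelial markers was 2.64 to 3.27 CPM in control and 0.377 to 0.883 CPM in TGFB1 libraries (PECAM1 and KDR at 0). The part of the shifts in epithelial, fibroblast and endothelial markers in the results was not tested. In such bulk samples, fewer cells of a type and less RNA per cell cannot be told apart.

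The changes among the 42 genes were small and went both ways. Levels are given as CPM, the counts relative to the library size after TMM scaling, log2 fold changes are TGFB1 minus control with their standard error (SE), and adjusted p comes from the edgeR quasi-likelihood fit, with Benjamini-Hochberg correction across the 14897 genes tested. All 42 genes had enough counts to be tested. At an adjusted p under 0.05, 12 were higher with TGF-β1, 11 were lower and 19 did not pass. The called share was 54.8% of these genes against 47.3% of all tested genes. The share called higher was 28.6% against 23.4%, and the share called lower 26.2% against 23.9%. The median absolute log2 fold change was 0.16 for the 42 genes and 0.24 for all tested genes. The TGFB1 libraries lay wholly above or below the control libraries in 26 of the 42 genes (61.9%, against 54.2% of all tested genes). A called change in which the higher group level exceeded the lower by 25% or more was seen in 8 of the 42 genes (19%, against 31.6% of all tested genes). These were the lower EIF2AK3, ATF5, LARS2 and PHGDH and the higher NUPR1, CEBPG, CEBPB and ASNS.

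**Figure D1:**
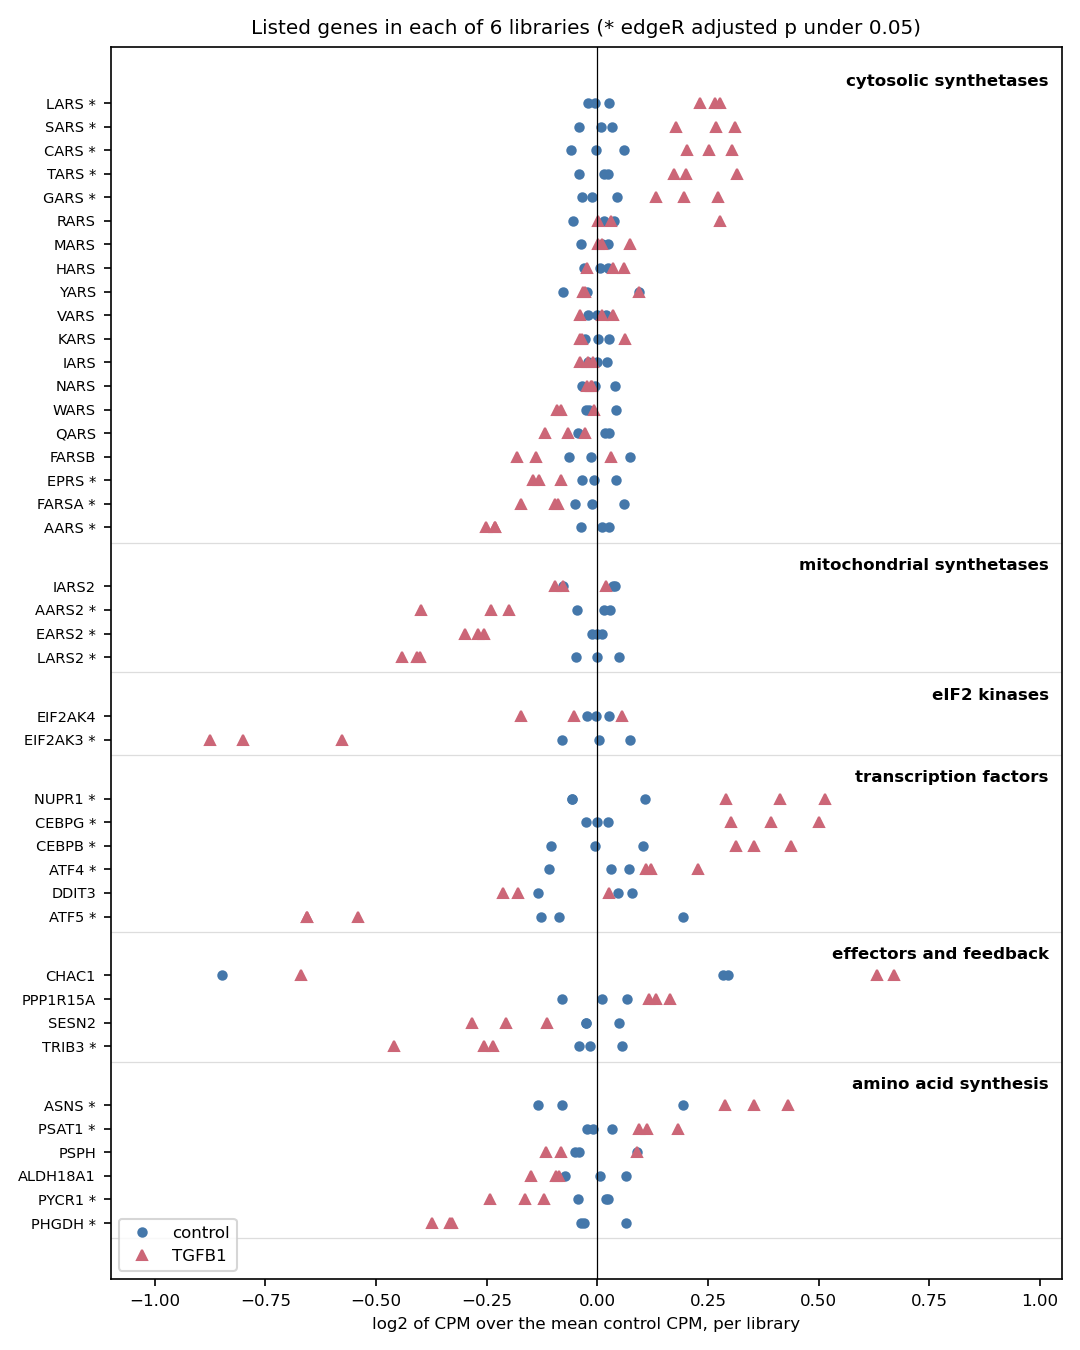
Level of the listed genes reported here in each library as the log2 of its CPM over the mean control CPM, with control libraries as circles and TGFB1 libraries as triangles, ordered within each role by the fold change; an asterisk marks an edgeR adjusted p under 0.05. Most cytosolic synthetases sit close to 0, EIF2AK3 lies furthest to the left (log2 fold change −0.75), and CHAC1, with the fewest counts, has the widest scatter within each group.

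Promoter sequence was compared first, because the C/EBP-ATF response element, where ATF4 can bind with a C/EBP partner, is what links synthetase genes to this response. RefSeq promoter windows (GRCh38.p14, 250 bases before to 50 after a start site) were matched for 34 of the 42 genes. Those without a window included LARS, VARS, YARS, AARS2, NUPR1, PSPH and PYCR1. The core of the element, TGATGNAA on either strand (TTNCATCA when read on the opposite one), was present in 10 of the 34 (29.4%), against 4.46% of all 27305 genes with a window. Of the 16 cytosolic synthetases with a window 7 held it. The 42 genes were listed for a response that ATF4 drives, so a raised share can follow from how they were chosen. The comparison took all genes with a window, not only the 14897 tested for expression. The 10 stretches, 5′ to 3′ on the gene's strand with the core in capitals, are shown because they carry this shared feature.
AARS (chr16:70289675-70289704, minus strand): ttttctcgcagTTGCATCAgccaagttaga
CARS (chr11:3057407-3057436, minus strand): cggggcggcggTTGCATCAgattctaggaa
GARS (chr7:30594834-30594863, plus strand): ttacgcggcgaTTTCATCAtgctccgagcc
IARS (chr9:92293692-92293721, minus strand): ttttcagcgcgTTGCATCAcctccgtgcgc
MARS (chr12:57488053-57488082, plus strand): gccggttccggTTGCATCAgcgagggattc
NARS (chr18:57621804-57621833, minus strand): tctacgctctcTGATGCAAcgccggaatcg
TARS (chr5:33440956-33440985, plus strand): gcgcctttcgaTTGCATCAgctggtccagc
CEBPG (chr19:33374060-33374089, plus strand): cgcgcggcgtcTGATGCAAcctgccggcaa
CHAC1 (chr15:40953251-40953280, plus strand): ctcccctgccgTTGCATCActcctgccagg
ASNS (chr7:97872458-97872487, minus strand): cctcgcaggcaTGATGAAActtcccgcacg

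In 8 of the 10 stretches the variable base gives the core TGATGCAA, and in GARS and ASNS it gives TGATGAAA. The core began within 68 bases of the start site in 8 genes, and 187 and 209 bases upstream in AARS and CHAC1. Genes that hold it did not move together: CARS, GARS, TARS, CEBPG and ASNS rose, AARS fell, and IARS, MARS, NARS and CHAC1 did not pass, with a median log2 fold change of 0.22. Of the 24 matched genes without these letters 4 rose, 8 fell and 12 did not pass, with a median of −0.08. Called shares with and without the core were 60% and 50%, against 47.3% of all tested genes. The difference between the 2 sets was not tested. A match in letters does not show that a factor binds there.

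**Figure D2:**
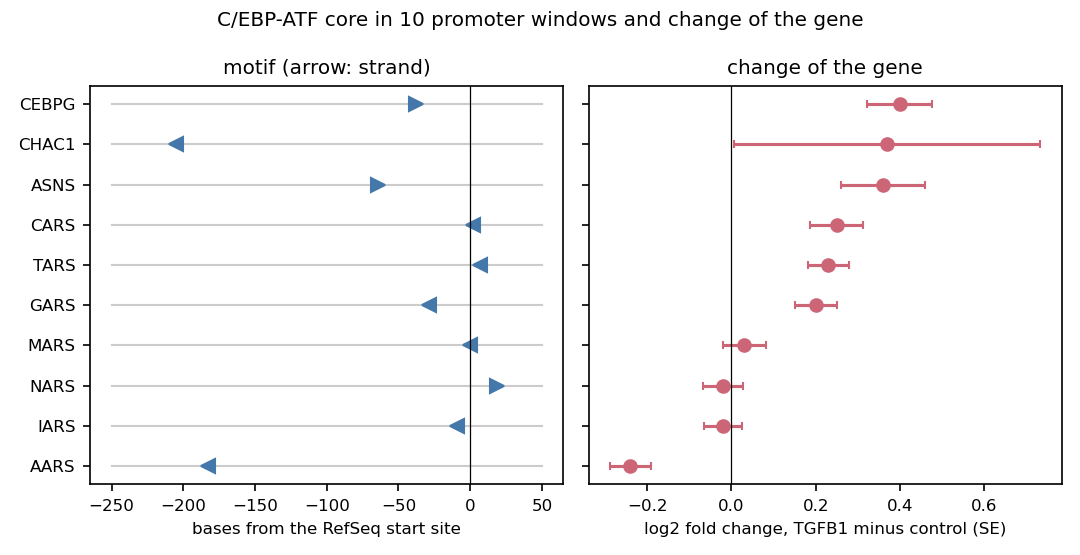
Left, position of the C/EBP-ATF core in the promoter window of the 10 genes that hold it, in bases from the RefSeq start site, with the arrowhead giving its strand relative to the gene; right, log2 fold change of the same gene with its SE. Genes with a core close to the start site span the range from CEBPG (0.40) to NARS and IARS (both −0.02), and AARS (−0.24) is the only called fall.

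The palindromic cAMP response element TGACGTCA, a site of CREB and ATF family factors, was present in 1 of the 34 matched genes (2.94%, against 2.25% of all genes with a window). It lies 58 bases upstream of the start site of PPP1R15A, and the stretch is shown with the element in capitals.
PPP1R15A (chr19:48872352-48872381, plus strand): gcctctcttcgTGACGTCAgcacgccgggc

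The ER stress response element (either strand) was found in 0 of the 34 matched genes and in 0.0916% of all genes with a window.

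The 20 cytosolic synthetases held their summed level closely. It was 4093, 4158 and 4066 CPM in control libraries and 4167, 4139 and 4308 CPM in TGFB1 libraries, and the groups overlapped. Of the 20 genes 6 rose (among them LARS, SARS, CARS, TARS and GARS), 3 fell (AARS, EPRS and FARSA) and 11 did not pass. Their median log2 fold change was 0.01, against 0 for all tested genes. Against 47.3% of all tested genes (23.4% higher, 23.9% lower), 45% of the 20 were called (30% higher, 15% lower). In none did the higher group exceed the lower by 25%, the fold changes running from −0.24 to 0.26 on the log2 scale, and from −0.29 to 0.32 over the 15 alternative analyses.

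LARS charges leucine tRNA and its protein also senses leucine for the growth kinase mTORC1. Its level was 127, 123 and 124.3 CPM in control libraries and 146.6, 150.1 and 151.1 CPM in TGFB1 libraries. All 3 TGFB1 libraries lay above all 3 control libraries, a log2 fold change of 0.26 ± 0.049 (SE, n = 3 per group, edgeR adjusted p = 6.09e-05).

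SARS, which charges serine tRNA, stood at 206.2, 213.4 and 217.2 CPM in control and at 255.6, 240.1 and 263.4 CPM in TGFB1 libraries. The groups did not overlap, and the log2 fold change was 0.25 ± 0.049 (edgeR adjusted p = 8.09e-05). TARS, the threonine enzyme and the highest of the 20 in CPM, stood at 473.8, 471.1 and 452.8 CPM in control and at 535, 525.3 and 579.6 CPM in TGFB1 libraries. Here too every TGFB1 library was higher than every control library (0.23 ± 0.048, edgeR adjusted p = 0.000198).

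AARS, the alanine enzyme, moved the other way. It stood at 173.1, 167.3 and 174.8 CPM in control and at 146.3, 146.3 and 144.3 CPM in TGFB1 libraries. The 3 TGFB1 libraries were close together and below all control libraries (−0.24 ± 0.048, edgeR adjusted p = 0.000132).

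With higher p-values, CARS (cysteine) rose 1.19-fold, as much as SARS, and GARS (glycine) 1.15-fold (edgeR adjusted p = 0.00146 and 0.00134). These 2 calls and those of LARS, SARS, TARS and AARS held in all 15 alternatives.

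EPRS, a fused enzyme for glutamate and proline, fell by 0.12 on the log2 scale (edgeR adjusted p = 0.0331). That call ended without control library 1 (edgeR adjusted p = 0.0996) or TGFB1 library 1 (0.119). With plain library-size scaling its log2 fold change was −0.06 (edgeR adjusted p = 0.267), and upper quartile scaling gave an edgeR adjusted p of 0.102. FARSA, the catalytic chain of the phenylalanine enzyme, also fell by 0.12 (edgeR adjusted p = 0.0461). It lost its call in 10 of the 15 alternatives, among them those without control library 2 or 3 (edgeR adjusted p = 0.171 and 0.0884) or TGFB1 library 1 or 2 (0.0755 and 0.194). Plain library-size scaling gave −0.06 (edgeR adjusted p = 0.296) and DESeq2 an adjusted p of 0.0776.

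The 11 genes that did not pass were FARSB, HARS, IARS, KARS, MARS, NARS, QARS, RARS, VARS, WARS and YARS. Their log2 fold changes ran from −0.09 (FARSB) to 0.11 (RARS), with SE of 0.045 to 0.061. In RARS, the arginine enzyme, TGFB1 library 3 stood apart at 204.8 CPM, with the other TGFB1 libraries at 172.7 and 169.3 CPM and the control libraries at 162.7 to 173.6 CPM. The phenylalanine enzyme is built of FARSA and FARSB chains, and FARSB stood at 81.1 to 94 CPM in TGFB1 and 88 to 96.8 CPM in control libraries. Without TGFB1 library 3, FARSB passed too (−0.16, edgeR adjusted p = 0.0226).

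Of 8 synthetases of the cytosolic multi-synthetase complex (among them EPRS, IARS, LARS, QARS, MARS, KARS and RARS, taken from textbook knowledge), 2 rose, 1 fell and 5 did not pass. Of the 12 outside it, 4 rose, 2 fell and 6 did not pass. Called shares inside and outside were 37.5% and 50%, against 47.3% of all tested genes. Both sets had a median log2 fold change of 0.01.

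Levels of different genes were set side by side as CPM per kilobase of exon in GENCODE 29. On this scale the control level spanned 7.18-fold, from 109.1 ± 2.88 (SD) for SARS to 15.2 ± 0.644 for CARS. After SARS came TARS at 102.3 ± 2.51, then KARS (lysine) at 96.3 ± 1.75 and FARSA at 95.1 ± 3.79, a pair that did not differ beyond its spread. The same held for EPRS and QARS (85.2 ± 2.33 and 83.6 ± 2.12), for IARS and RARS (76.5 ± 1.11 and 74.7 ± 2.51) and for GARS, NARS and YARS (64.3 ± 1.84, 63.2 ± 1.69 and 62.5 ± 3.84). VARS stood between these at 68.8 ± 0.990. AARS, WARS, MARS and HARS followed at 49.4, 43.8, 40.0 and 31.1, and FARSB and LARS at 27.3 and 26.2. The genes that rose were thus among both the highest and the lowest of the family. Exon lengths come from another annotation than that of the counts and join all annotated exons of a gene. The transcripts in these cells may be shorter, so the order and the span are approximate.

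**Figure D3:**
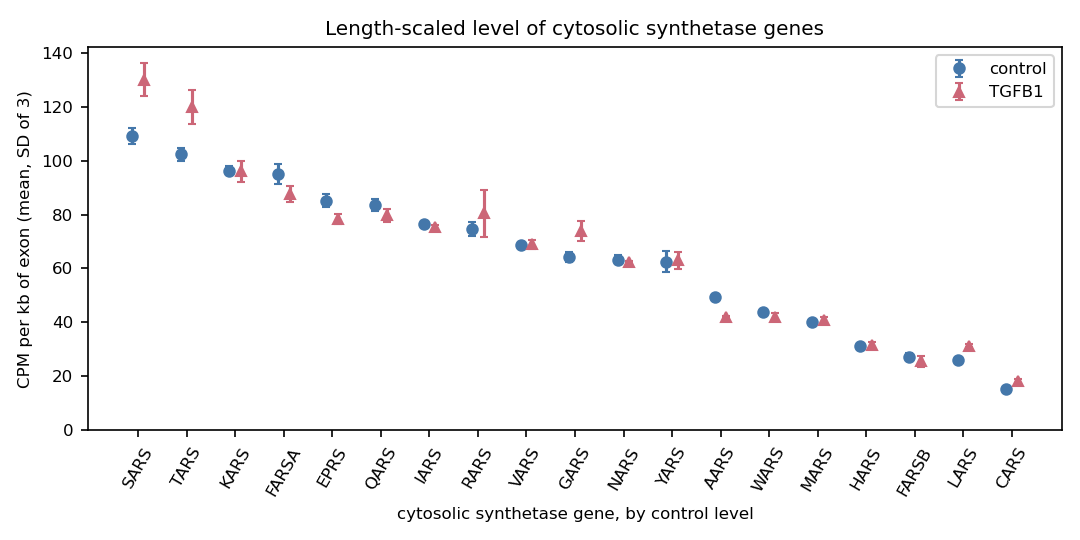
Level of the cytosolic synthetase genes reported here as CPM per kilobase of exon, mean and SD of 3 libraries, for control (circles) and TGFB1 (triangles), ordered by control level. SARS and TARS lead in both groups. LARS stands above FARSB with TGF-β1 (31.3 ± 0.499 against 25.6 ± 2.04). In control these 2 genes did not differ beyond their spread (26.2 ± 0.433 and 27.3 ± 1.33).

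Of the 4 mitochondrial synthetases listed, 3 fell and 1 did not pass (75% called lower, against 23.9% of all tested genes), with a median log2 fold change of −0.27. They are a few of the mitochondrial synthetase genes, and 13 others are given after them. LARS2, the mitochondrial leucine enzyme, stood at 91.2, 88.3 and 94.4 CPM in control and at 69.2, 67.2 and 68.8 CPM in TGFB1 libraries. The groups were well separated (−0.42 ± 0.056, edgeR adjusted p = 4.33e-07), while the cytosolic leucine enzyme LARS rose.

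EARS2, which charges mitochondrial glutamate tRNA, stood at 64, 65 and 64.5 CPM in control and at 53.5, 52.4 and 54 CPM in TGFB1 libraries. The SD was 0.500 and 0.788 CPM, and the fall was 1.21-fold (edgeR adjusted p = 0.000315). AARS2, the mitochondrial alanine enzyme, fell 1.21-fold as well, from 54.6, 51.8 and 54.1 CPM to 45.3, 46.6 and 40.6 CPM (edgeR adjusted p = 0.00106), in the same direction as AARS. IARS2 (isoleucine) stood at 264.8, 264 and 243.9 CPM in control and at 244.1, 241 and 261.1 CPM in TGFB1 libraries, which overlapped (edgeR adjusted p = 0.426).

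Of 13 other mitochondrial synthetases 2 rose, 2 fell and 9 did not pass. These genes had a called share of 30.8%, against 47.3% of all tested genes, and a median log2 fold change of 0.06. Their summed level was 615.2 to 626.4 CPM in control and 568.7 to 584.3 CPM in TGFB1 libraries, which did not overlap. The mean sum went from 619.5 to 574.9 CPM, a smaller fall in CPM than that of CARS2 alone. The difference between these 13 genes and the 4 above was not tested. CARS2 (cysteine) fell from 199.8 ± 5.98 to 148.9 ± 3.55 CPM (SD, n = 3, edgeR adjusted p = 1.93e-08), opposite to its cytosolic counterpart CARS. VARS2 (valine) fell from 44.1 ± 1.33 to 31.7 ± 0.894 CPM, while VARS stood at 296.5 and 297 CPM in the 2 groups. NARS2 (asparagine) and RARS2 (arginine) rose 1.18-fold and 1.19-fold. The RARS2 call ended without control library 2 (edgeR adjusted p = 0.0973). Among the scaffold proteins of the multi-synthetase complex, AIMP1, AIMP2 and EEF1E1 did not pass, with log2 fold changes of −0.10, −0.15 and 0.10. XPOT, which exports tRNA from the nucleus, rose from 200.1 ± 7.45 to 236.1 ± 3.58 CPM (edgeR adjusted p = 0.00012).

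Of the eIF2 kinases, PERK and GCN2 differed in their transcripts. EIF2AK3 (PERK) stood at 16, 15.1 and 16.8 CPM in control and at 8.7, 9.17 and 10.7 CPM in TGFB1 libraries. This was the largest called change among the 42 genes, 1.68-fold lower (−0.75 ± 0.108, edgeR adjusted p = 1.25e-06). In GENCODE 29, 16.9% of its exon bases overlap other genes, and the reads of those bases cannot be assigned without strand. EIF2AK4 (GCN2) stood at 91.8, 88.6 and 89.9 CPM in control and at 86.9, 93.6 and 79.9 CPM in TGFB1 libraries, and the groups overlapped (edgeR adjusted p = 0.507).

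Of 15 further genes for eIF2, its exchange factor eIF2B and their regulators, 0 rose, 6 fell and 9 did not pass (median log2 fold change −0.06). No others of this list had an unadjusted p under 0.05 in edgeR. The list had 40% called, all lower, against 47.3% called and 23.9% called lower of all tested genes. Its median absolute log2 fold change was 0.1, against 0.24 for all tested genes. DESeq2 and limma-voom also gave 0 rises and 6 falls, and plain library-size scaling gave 1 and 5. PPP1R15B, a constitutive partner of the phosphatase that removes phosphate from eIF2, fell from 226.8 ± 10.9 to 108.5 ± 3.56 CPM (−1.06 ± 0.051, edgeR adjusted p = 2.13e-16). EIF2AK1 and EIF2AK2, the heme-regulated and double-stranded RNA-activated eIF2 kinases, fell 1.39-fold and 1.16-fold (edgeR adjusted p = 1.66e-09 and 0.00158). DNAJC3, a chaperone that inhibits eIF2 kinases, fell 1.28-fold (edgeR adjusted p = 3.85e-05).

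Of the 6 transcription factors and cofactors 4 rose, 1 fell and 1 did not pass. This is a called share of 83.3% and a share called higher of 66.7%, against 47.3% and 23.4% of all tested genes. NUPR1, a small stress-induced chromatin protein, stood at 23.9, 26.8 and 23.9 CPM in control and at 33.1, 30.4 and 35.5 CPM in TGFB1 libraries. All TGFB1 libraries were higher (0.41 ± 0.079, edgeR adjusted p = 9.88e-05). CEBPG, a C/EBP family member that pairs with ATF4, stood at 23.6, 24 and 23.2 CPM in control and at 31, 29.1 and 33.4 CPM in TGFB1 libraries, 1.32-fold higher (edgeR adjusted p = 9.6e-05).

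CEBPB, another C/EBP factor and a pathway target, stood at 67.3, 62.8 and 72.5 CPM in control and at 91.5, 86.3 and 83.9 CPM in TGFB1 libraries. The groups did not overlap, and the rise was 1.29-fold (edgeR adjusted p = 1.14e-05). CEBPB-AS1 overlaps 11.8% of its exon bases in GENCODE 29. ATF4 itself stood at 159.5, 180.6 and 175.8 CPM in control and at 185.7, 186.9 and 201.4 CPM in TGFB1 libraries. The lowest TGFB1 library was only slightly above the highest control library, a log2 fold change of 0.15 ± 0.053 (edgeR adjusted p = 0.0178). The ATF4 call ended without control library 1 or 3 (edgeR adjusted p = 0.157 and 0.0542), without TGFB1 library 3 (0.0691) and with offsets for GC content and length (0.09, edgeR adjusted p = 0.0957).

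ATF5, a relative of ATF4 that is also translated under eIF2 phosphorylation, moved in the opposite direction. It stood at 17.3, 21.6 and 17.8 CPM in control and at 13, 12 and 12 CPM in TGFB1 libraries. Every TGFB1 library was lower (1.53-fold, −0.61 ± 0.102, edgeR adjusted p = 1.23e-05). In GENCODE 29, 24.7% of ATF5 exon bases overlap other genes, among them NUP62 and IL4I1. DDIT3, which encodes the death-linked factor CHOP, stood at 7.49, 8.67 and 8.48 CPM in control and at 8.36, 7.09 and 7.25 CPM in TGFB1 libraries and did not pass (edgeR adjusted p = 0.469). Other genes, MARS among them, overlap 12.8% of its exon bases.

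Of the 4 effectors and feedback genes 1 fell and 3 did not pass (25% called, against 47.3% of all tested genes). The one that fell was TRIB3, a pseudokinase that restrains ATF4 and AKT. It stood at 51.4, 48.1 and 48.9 CPM in control and at 42, 41.4 and 36 CPM in TGFB1 libraries. All TGFB1 libraries were lower (−0.31 ± 0.069, edgeR adjusted p = 0.000471). SESN2, a leucine-sensing inhibitor of mTORC1, stood at 15.2, 15.2 and 16 CPM in control and at 14.3, 13.4 and 12.7 CPM in TGFB1 libraries, which did not overlap, but it did not pass (−0.20 ± 0.097, edgeR adjusted p = 0.102). With GC and length offsets it passed (edgeR adjusted p = 0.0161).

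PPP1R15A, the inducible partner of the eIF2 phosphatase (GADD34), stood at 34.1, 32.8 and 30.8 CPM in control and at 35.7, 35.3 and 36.5 CPM in TGFB1 libraries and did not pass (0.14 ± 0.070, edgeR adjusted p = 0.106). With plain library-size scaling it passed (0.20, edgeR adjusted p = 0.0232). Its constitutive counterpart PPP1R15B was the gene of the eIF2 list with the lowest p. CHAC1, which degrades glutathione, was near the limit of measurement, at 1.17, 1.18 and 0.534 CPM in control and at 1.49, 1.53 and 0.604 CPM in TGFB1 libraries. Library 3 was the lowest in both groups, and no difference was detectable at this depth (0.37 ± 0.364, edgeR adjusted p = 0.433).

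The enzymes of serine and proline synthesis did not change as a block. PHGDH, which commits a glycolytic intermediate to serine synthesis, stood at 209.9, 224.2 and 209.1 CPM in control and at 170.8, 165.4 and 170.3 CPM in TGFB1 libraries. The groups were well separated, and the fall was 1.27-fold (−0.34 ± 0.048, edgeR adjusted p = 7.51e-07). PSAT1, the next enzyme, stood at 129.2, 125.3 and 124.1 CPM in control and at 134.8, 136.3 and 143.2 CPM in TGFB1 libraries, a rise of 1.09-fold (edgeR adjusted p = 0.0335).

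The PSAT1 call ended in 8 of the 15 alternatives. Among them were those without control library 2 or 3 (edgeR adjusted p = 0.106 and 0.172) or TGFB1 library 1, 2 or 3 (0.0516, 0.0532 and 0.0857). It also ended in DESeq2 (adjusted p = 0.0516), with replicate numbers as blocks (edgeR adjusted p = 0.0818) and with no filter on low counts. PSPH, the last enzyme of serine synthesis, stood at 17.9, 17.8 and 19.6 CPM in control and at 17, 17.4 and 19.6 CPM in TGFB1 libraries, which overlapped (edgeR adjusted p = 0.747). Its pseudogene copy PSPHP1 reached 32.9% of the PSPH level, so reads shared between the copies make the PSPH level uncertain.

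ASNS, which makes asparagine and is a classical ATF4 target, stood at 16.2, 12.9 and 13.4 CPM in control and at 18.1, 17.3 and 19.1 CPM in TGFB1 libraries. Every TGFB1 library was higher (1.28-fold, 0.36 ± 0.100, edgeR adjusted p = 0.0039). In GENCODE 29 another gene, AC079781.5, covers 79.7% of ASNS exon bases. Reads over 2 genes are set aside as ambiguous in these tables, so the ASNS level is uncertain where the counting annotation holds the same overlap.

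In proline synthesis, PYCR1, a mitochondrial reductase of the last step, stood at 91.2, 95.3 and 95.6 CPM in control and at 84, 86.5 and 79.5 CPM in TGFB1 libraries. All TGFB1 libraries were lower (−0.17 ± 0.056, edgeR adjusted p = 0.0115), but the call ended with plain library-size scaling (−0.12, edgeR adjusted p = 0.0874). Another gene, AC145207.4, overlaps 19.6% of its exon bases in GENCODE 29. ALDH18A1, the first enzyme of the route, stood at 160.7, 176.6 and 169.6 CPM in control and at 152.3, 159.2 and 158.4 CPM in TGFB1 libraries, which did not overlap, and it did not pass (−0.11 ± 0.050, edgeR adjusted p = 0.0731). It passed without control library 1 (−0.15, edgeR adjusted p = 0.0239).

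Of 10 related genes of serine, proline and glutamine metabolism 3 rose, 4 fell and 3 did not pass. Their median absolute log2 fold change was 0.58, against 0.15 for the 6 enzymes above and 0.24 for all tested genes. Among all tested genes 47.3% were called, and among these 10 genes 70%. GLUL, which makes glutamine, fell from 125.8 ± 2.31 to 42.5 ± 3.11 CPM (−1.56 ± 0.060, edgeR adjusted p = 1.45e-18). PYCRL, a cytosolic relative of PYCR1, rose 1.44-fold where PYCR1 fell, and OAT, which links ornithine to proline, rose 1.24-fold.

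Other genes linked to ATF4 also went both ways. Of 25 listed, 6 rose, 8 fell and 11 did not pass (56% called, against 47.3% of all tested genes), with a median log2 fold change of 0. EIF4EBP1, a repressor of cap-dependent translation, rose from 85 ± 4.63 to 133.8 ± 3.36 CPM (edgeR adjusted p = 3.95e-11). CTH, which makes cysteine from cystathionine, fell from 46.3 ± 4.55 to 8.84 ± 1.08 CPM, 5.2-fold (edgeR adjusted p = 3.5e-18). SESN3, a relative of SESN2, fell 2.85-fold, and GOT1, an aspartate aminotransferase, fell 1.62-fold. Of 14 listed chaperones and sensors of the endoplasmic reticulum, 1 rose, 10 fell and 3 did not pass, with a median log2 fold change of −0.31. The share called lower was 71.4% against 23.9% of all tested genes, and the share called in either direction 78.6% against 47.3%. HSPA5, the chaperone BiP, fell from 1707 ± 33.6 to 1400.3 ± 35.9 CPM (edgeR adjusted p = 4.35e-06), and HYOU1, PDIA6 and XBP1 fell 1.28-fold, 1.26-fold and 1.32-fold. The exception was EDEM1, which acts in disposal of misfolded glycoproteins and rose 1.14-fold (edgeR adjusted p = 0.046). The EDEM1 call ended without control library 2 or 3 (edgeR adjusted p = 0.0821 and 0.318), without TGFB1 library 2 (0.321), in DESeq2 (adjusted p = 0.101) and in limma-voom (limma adjusted p = 0.0525).

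**Figure D4:**
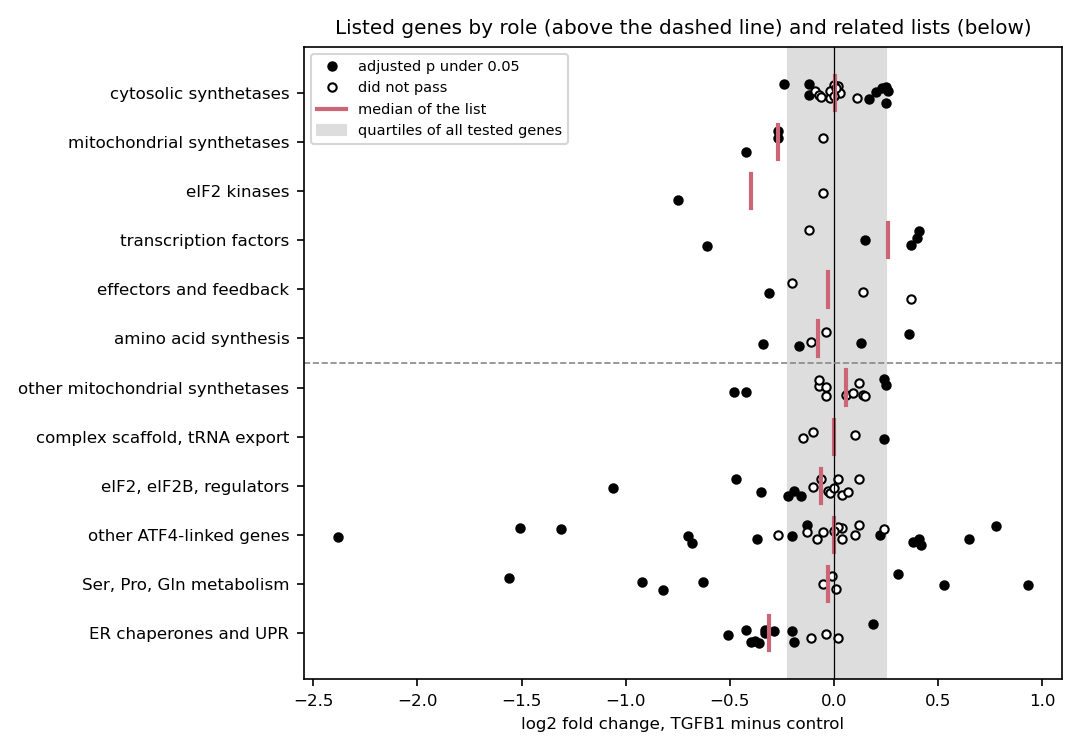
Log2 fold change (TGFB1 minus control) of the 42 genes by role, above the dashed line, and of 6 related lists, below it; filled points passed edgeR's test, open points did not, red bars are list medians and the grey band spans the quartiles of all tested genes (−0.22 to 0.25). The cytosolic synthetases lie within or near the band, while the endoplasmic reticulum list has most points to its left.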

How the data were processed

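Total RNA of 3 control and 3 TGFB1 libraries was sequenced. The authors deposited whole-number read counts per gene symbol for each library, not normalized. Per the submitters' processing notes, the tools include HTSeq, TopHat and TopHat2 2.0.11, and the builds are GRCh37 and hg19, listed without role or order. The annotation and strand setting of the counting are not given in those sources. The closing lines of each table are no genes and stayed out of sizes and tests. Of all counted reads, those with no feature made up 5.44% to 5.98%, ambiguous ones 9.01% to 9.43% and those aligned to several places 12% to 12.5%.

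Counts were filtered with filterByExpr (minimum count 10, minimum total 15), scaled by TMM (factors 0.975 to 1.02) and tested with edgeR 4.0.16 (robust glmQLFit and glmQLFTest, R 4.3.3) with a threshold of 0.05 on the adjusted p. The common biological coefficient of variation of the 6 libraries was 0.047. Each SE is the fold change divided by the root of F. Pairs of libraries within a group had chi-square values of 1.82 to 4.67 for each degree of freedom, more than sampling noise. DESeq2 1.42.0, limma 3.58.1 (voom), other scalings and filters, a replicate block and leaving out each library were alternatives, and GC and length offsets were added after the data were seen. The tests were tried on simulated data. Groups came from the sample titles.

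The 42 genes and all lists were chosen with earlier results of these data known. All 42 genes entered the counts, and a few results on single genes are not reported here. Values in each library are given for all but the cytosolic synthetases, of which the 4 with the lowest p are shown because none differed by 25%. From each further list the 4 genes with the lowest p are named, with up to 3 called genes that go against the rest of it. The multi-synthetase complex was split off after values were seen. Gene lengths and overlaps are from GENCODE 29 (GRCh38), and promoter windows from RefSeq (GRCh38.p14). Coordinates printed are those of the promoter stretches in that build, not of the build of the counts.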

Additional observations from a re-analysis of the deposited data

How the results depend on the processing

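Over the 15 alternatives the 42 genes had 9 to 14 rises and 8 to 15 falls, against 12 and 11 as reported. Leaving out each library in turn gave 9 to 12 rises, 9 to 12 falls and 6115 to 6816 called genes in all. Of the 23 called genes, 17 kept direction and call in every alternative and 6 (among them EPRS, FARSA, ATF4, PSAT1 and PYCR1) lost the call in at least 1. Of the 19 genes that did not pass, 7 (FARSB, QARS, RARS, WARS, SESN2, PPP1R15A and ALDH18A1) gained a call in at least 1. Scaling by library size alone moved the median log2 fold change of all genes to 0.057 and gave 14 rises and 8 falls among the 42, with 59.4% of all called genes higher against 49.4%. GC and length offsets, which covered 13409 of the 14897 genes (90%) and all 42 listed ones, gave 11 and 15.

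Deviations from the group means correlated at 0.03, −0.11 and −0.05 between libraries sharing the replicate numbers 1, 2 and 3. Between libraries of unlike numbers they correlated at −0.09 to 0.14. No pairing by number was seen, but with 3 libraries per group such values cannot tell whether libraries of a number shared a culture. With the replicate number as a block, 11 of the 42 rose and 9 fell, and EPRS, FARSA and PSAT1 lost their calls.

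Genes near 0 changed sign without passing. With scaling by library size alone the log2 fold change was 0.03 for IARS, 0.05 for KARS, 0.04 for NARS, 0.0059 for IARS2, 0.0053 for EIF2AK4 and 0.02 for PSPH, and with upper quartile scaling 0.0019 for IARS, 0.02 for KARS and 0.0085 for NARS. With GC and length offsets it was −0.03 for MARS, −0.07 for VARS and −0.05 for YARS. Leaving out single libraries moved KARS between −0.04 and 0.01, VARS between −0.02 and 0.02, YARS between −0.03 and 0.05, EIF2AK4 between −0.11 and 0.0026, PSPH between −0.10 and 1e-04 and EEF1E1 between −0.03 and 0.24. With SE of 0.045 or more per gene, differences of this size are not resolved by 3 libraries per group.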
